A study of Mus musculus with 6 samples.

Results

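The granin family comprises acidic proteins that are packed with hormones into the dense-core granules of endocrine cells and neurons. The genes taken here are Chga, Chgb, Scg2, Scg3 and Vgf, and every probe row of the deposited count table that carries one of these symbols was used. That gave 9 probe rows for 5 genes out of 30146 probe rows for 21400 genes. Chga, the more abundant probe of Scg3 and the less abundant probe of Scg2 fell in cisplatin-treated islets, 2.71-fold, 2.34-fold and 2.53-fold, and the other probes of Scg3 and Scg2 were not called. Both probes of Vgf rose, 5.94-fold and 3.47-fold, in the same libraries, while no Chgb probe passed the test.

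The study measured gene expression in pancreatic islets isolated from wild-type male C57Bl/6 mice. Islets of each of 3 mice were divided between culture with 10 uM cisplatin, a platinum drug that crosslinks DNA, and culture with 0.9% saline as vehicle, both for 48 h in complete RPMI medium. This gave 3 cisplatin and 3 vehicle libraries, numbered here by mouse. The age of the mice is not stated in the sources used here. The assay, TempO-Seq, ligates a pair of detector oligonucleotides on each target RNA in lysate and sequences the product, so a row is 1 probed site and not a whole transcript.

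Granins aggregate in the trans-Golgi network, where the lumen is acidic and rich in calcium, and this aggregation helps to form granules and to sort prohormones into them. They are also cleaved by the prohormone convertases into peptides with activities of their own. In islets they are found in beta, alpha, delta and PP cells, and circulating chromogranin A serves as a marker of neuroendocrine tumours. Transcription of several granin genes is known to be driven through a cAMP response element close to the gene start, the site bound by CREB.

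RefSeq windows were available for 4 members, and Vgf, which had none, was not searched for motifs. The sequence just upstream of the gene start is shown for these 4, since they share a cAMP element core. Each is the 250 bases before the start on the gene's own strand (RefSeq, GRCm38.p6), 5′ to 3′, with capitals for every match to TGACG or to the full palindrome TGACGTCA on either strand. The RefSeq start used here is not the GENCODE gene start given further on for every gene: it lies 364 bases downstream of it for Chgb and 94 for Scg2, so these windows lie wholly or partly inside the GENCODE gene, and it is the same base for Scg3. The windows are chr1:79440027-79440276 on the minus strand for Scg2, chr2:132781392-132781641 on the plus strand for Chgb, chr12:102554691-102554940 on the plus strand for Chga and chr9:75684057-75684306 on the minus strand for Scg3.
Scg2: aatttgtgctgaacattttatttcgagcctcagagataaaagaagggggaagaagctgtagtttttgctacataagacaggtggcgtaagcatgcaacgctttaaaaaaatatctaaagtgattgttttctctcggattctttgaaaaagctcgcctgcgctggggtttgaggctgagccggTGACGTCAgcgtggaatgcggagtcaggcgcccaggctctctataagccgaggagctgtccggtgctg
Chgb: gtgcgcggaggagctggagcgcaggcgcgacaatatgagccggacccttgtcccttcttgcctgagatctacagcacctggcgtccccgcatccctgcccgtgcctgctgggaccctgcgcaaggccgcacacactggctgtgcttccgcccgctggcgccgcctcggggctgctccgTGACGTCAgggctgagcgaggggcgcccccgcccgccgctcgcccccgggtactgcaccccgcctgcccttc
Chga: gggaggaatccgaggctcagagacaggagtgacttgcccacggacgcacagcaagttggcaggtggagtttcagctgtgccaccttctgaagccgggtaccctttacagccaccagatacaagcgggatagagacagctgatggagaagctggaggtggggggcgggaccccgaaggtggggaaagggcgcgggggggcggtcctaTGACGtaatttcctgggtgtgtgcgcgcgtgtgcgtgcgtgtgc
Scg3: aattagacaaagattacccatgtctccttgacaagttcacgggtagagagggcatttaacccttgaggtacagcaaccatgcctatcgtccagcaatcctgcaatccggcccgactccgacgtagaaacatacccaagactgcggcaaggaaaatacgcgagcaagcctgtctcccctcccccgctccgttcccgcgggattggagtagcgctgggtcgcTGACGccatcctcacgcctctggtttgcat

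Scg2 and Chgb each held 1 full palindrome, which began 68 and 72 bases before the RefSeq start. TGACGTCA was found in 1.55% of all 32851 promoter windows of that length. Chga and Scg3 held the core TGACG without the full palindrome, from 44 and 30 bases before the start, and the core, which every palindrome also contains, was found in 17.8% of all windows. Matches to the GC box GGGCGG, searched on both strands, were found 2 times each in Chga and Chgb and in 32.7% of windows, and TATAAA, found in 12.4%, was found in none of the 4. The motifs were chosen with these sequences in view, and a match is a run of letters, not a measured binding site. Among the 5739 tested genes with a window, counted by their most abundant probe, 14.0% were called lower and 12.1% higher, with a median log2 fold change of -0.03. Among the 202 of these with a full palindrome, 12.9% were called lower and 11.9% higher, with a median of 0.14. Among the 1898 of the 5739 with the core, 13.3% were called lower and 13.1% higher, with a median of 0.05. The 1.55% and 17.8% above cover windows of all genes, tested or not, so they are not the shares among tested genes.

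**Figure D1:**
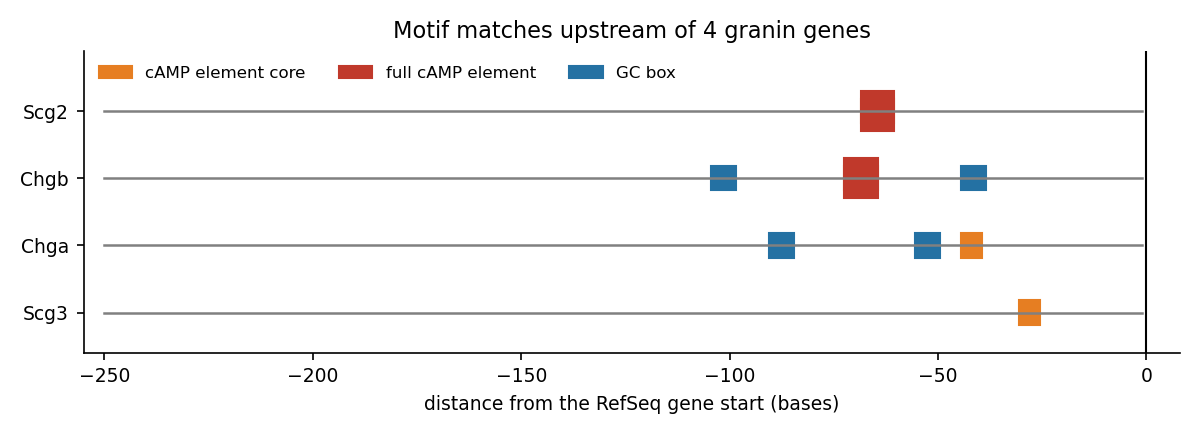
Positions of motif matches in the 250 bases upstream of the RefSeq start (horizontal axis, bases from the start) for Scg2, Chgb, Chga and Scg3. Tall red blocks mark the full cAMP element, present in Scg2 and Chgb, orange blocks the TGACG core alone and blue blocks the GC box.

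The libraries held 1116916 to 1366829 counts with cisplatin and 1470227 to 2272276 with vehicle. Cisplatin library 3 stands apart, with 28.6% of its counts on mitochondrially encoded rows against 2.83% and 3.11% in the other cisplatin libraries and 0.188% to 1.74% in vehicle libraries (95% Wilson intervals within 0.0757 percentage points, counting error only). The islet label was checked against 7 endocrine hormone markers, all of which were detected and tested. Their summed CPM, counts scaled to library size with TMM factors, ran from 68235 to 148797 with cisplatin and from 109671 to 213553 with vehicle, and 2 of the 7 were called lower. Acinar markers summed to 1.9 to 14.4 CPM with cisplatin and 3.56 to 5.05 with vehicle, with Prss2, Pnlip and Cel at 0 counts. Immune markers summed to 11.0 to 47.2 CPM with cisplatin and 128 to 206 with vehicle, and 5 of 6 tested were called lower. Markers of neural or Schwann cells summed to 24.7 to 40.8 and 109 to 162 CPM, most of it from Th, and the 1 tested was called lower. Of 3 endothelial markers tested 2 were called lower and 1 higher (summed 44.0 to 79.9 CPM with cisplatin and 68.2 to 99.6 with vehicle), of 4 stromal markers 1 was called lower (29.6 to 49.4 and 48.6 to 141 CPM), and of 2 duct markers 0 were called in either direction (1181 to 2171 and 1043 to 1450 CPM). What part these shifts have in the granin values was not tested.

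All 9 granin rows passed the filter on low counts. In edgeR's quasi-likelihood test, with p-values adjusted over all tested rows and calls at an adjusted p under 0.05, 3 rows were called lower, 2 higher and 4 were not called. Over all 9381 tested rows 13.9% were called lower, 11.1% higher and 25.0% in either direction. The TMM-scaled values of the 3 cisplatin libraries lay wholly below those of the 3 vehicle libraries in 5 granin rows, against 24.3% of all tested rows, and wholly above them in 2, against 19.1%. In the other 2 rows the arms overlapped. The family's shares were not tested against those of all rows. Lower values in whole islets can come, among other sources, from fewer endocrine cells or from less RNA per cell, and the 2 cannot be told apart here. Scaled values also depend on the other rows of a library. With library totals as the scale the median log2 fold change of all tested rows was -0.54, against -0.07 with TMM.

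Chga (GRCm38, chromosome 12, 102554969 to 102565028, GENCODE M21) codes for chromogranin A, a core protein of granule formation and the precursor of pancreastatin and vasostatin. Its single probe, 57316, had 13783, 21001 and 18945 CPM in vehicle libraries 1 to 3 and 7472, 6290 and 6072 CPM in the cisplatin libraries. The arms did not overlap, and the lowest vehicle value was that of mouse 1. By raw counts this row was the fifth most abundant of the table in every vehicle library, and it ranked 10, 12 and 15 in cisplatin libraries 1 to 3. The mean went from 17910 ± 3719 to 6612 ± 753 CPM (SD, n = 3), a log2 fold change of -1.44 ± 0.38 (SE, edgeR adjusted p = 0.0129). Within mice 1, 2 and 3 the log2 ratio of cisplatin to vehicle was -0.88, -1.74 and -1.64, so the direction was the same in all 3. Without cisplatin library 1 the row just missed the threshold (edgeR adjusted p = 0.0504), at an unchanged fold change of -1.44.

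Chgb (chromosome 2, 132781278 to 132795079) codes for chromogranin B, a second structural granin that supports the processing and release of insulin. Its more abundant probe, 54466, had 195, 200 and 187 CPM with vehicle and 162, 169 and 136 CPM with cisplatin. The arms did not overlap, yet the gap was small, and the row was not called (-0.32 ± 0.26, edgeR adjusted p = 0.407). The unadjusted 95% interval of this log2 fold change ran from -0.87 to 0.24. Its other probe, 29666, had 82, 30 and 65 counts with vehicle and 20, 7 and 8 with cisplatin. That probe was not called either (-1.25 ± 0.55, edgeR adjusted p = 0.113), except without cisplatin library 1 (-1.66, edgeR adjusted p = 0.0439). In every library the second probe gave at most 0.167 of the counts of the first, so the gene's total followed probe 54466.

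Scg2 (chromosome 1, 79434669 to 79440120) codes for secretogranin II, the precursor of secretoneurin, and its more abundant probe was close to Chga in counts. That probe, 72713, had 9259, 19500 and 14376 CPM in vehicle libraries 1 to 3 and 11794, 6044 and 6945 CPM with cisplatin. The arms overlapped, because mouse 1 had the lowest vehicle and the highest cisplatin value. Its log2 ratio within mouse 1 was 0.35, against -1.69 and -1.05 in mice 2 and 3, and the row was not called (-0.80 ± 0.42, edgeR adjusted p = 0.183). The unadjusted 95% interval was -1.70 to 0.10. Without the filter on low counts the row was called lower (-0.90, edgeR adjusted p = 0.0287).

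The other Scg2 probe, 29080, had 2460, 3885 and 4055 CPM with vehicle and 1557, 1228 and 1330 with cisplatin, with no overlap between the arms. It was called lower, at -1.34 ± 0.31 (edgeR adjusted p = 0.00682), and mouse 1 again had the smallest change (-0.66, against -1.66 and -1.61). The ratio of this probe to probe 72713 was 0.132, 0.203 and 0.192 in cisplatin libraries 1 to 3 and 0.266, 0.199 and 0.282 in vehicle libraries, ranges that overlap (exact permutation p = 0.2, or 0.267 adjusted over 4 genes). So 1 probe of this gene passed the threshold and the other did not, and their ratio did not separate the arms. With both probes summed the gene was not called (-0.91, edgeR adjusted p = 0.111).

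Scg3 (chromosome 9, 75643189 to 75684056) codes for secretogranin III, which binds chromogranin A and tethers it to the cholesterol-rich granule membrane. It had the widest genomic span of the 5 genes, 40.9 kb against 5.45 to 13.8 kb. Its more abundant probe, 66455, had 281, 304 and 292 CPM with vehicle and 150, 145 and 78.3 CPM with cisplatin. The vehicle values were tightly grouped and cisplatin library 3 was the lowest. The row was called lower (-1.23 ± 0.30, edgeR adjusted p = 0.00883), and it was at -0.97 without cisplatin library 3 (edgeR adjusted p = 0.0247). The other probe, 72698, had 85, 121 and 97 counts with vehicle and 44, 25 and 4 with cisplatin, and its CPM values overlapped between the arms. It was not called (-1.15 ± 0.58, edgeR adjusted p = 0.166). Without cisplatin library 1 it was at -1.70 and called (edgeR adjusted p = 0.0408), and it was at -0.67 without cisplatin library 3 and -0.72 without vehicle library 2.

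Vgf (chromosome 5, 137026392 to 137033351) codes for a granin-like precursor of secreted peptides that was first described as a gene induced by nerve growth factor. Its more abundant probe, 73641, had 34.0, 20.8 and 44.1 CPM in vehicle libraries 1 to 3 and 159, 120 and 316 CPM in the cisplatin libraries. The raw counts behind these were 86, 33 and 112 with vehicle and 188, 126 and 295 with cisplatin, so the counts themselves were higher despite the smaller cisplatin libraries. Cisplatin library 3 was the highest, and the lowest cisplatin value was still 2.72 times the highest vehicle value. The mean went from 33.0 ± 11.7 to 198 ± 104 CPM (SD, n = 3), a log2 fold change of 2.57 ± 0.41 (edgeR adjusted p = 6.9e-04). Log2 ratios within mice 1 to 3 were 2.23, 2.52 and 2.84.

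The other Vgf probe, 75705, had 24, 11 and 32 counts with vehicle and 31, 23 and 51 with cisplatin, or 6.95 to 12.6 against 21.9 to 54.7 CPM. It was called higher (1.80 ± 0.53, edgeR adjusted p = 0.0249), with no overlap between the arms. This call was lost with library totals as the scale (1.27, edgeR adjusted p = 0.118) and without cisplatin library 3 (1.31, edgeR adjusted p = 0.116) or vehicle library 1 (1.84, edgeR adjusted p = 0.0986), 2 (1.61, edgeR adjusted p = 0.081) or 3 (2.01, edgeR adjusted p = 0.0641). Probe 73641 was called under every setting tried, and it was at 2.08 without cisplatin library 3. Probe 75705 gave 0.283, 0.343 and 0.289 of the counts of probe 73641 with vehicle and 0.167, 0.186 and 0.174 with cisplatin (exact permutation p = 0.1, the smallest possible, or 0.267 adjusted over 4 genes). Both sites of Vgf were thus higher with cisplatin, and their ratio separated the arms without overlap.

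**Figure D2:**
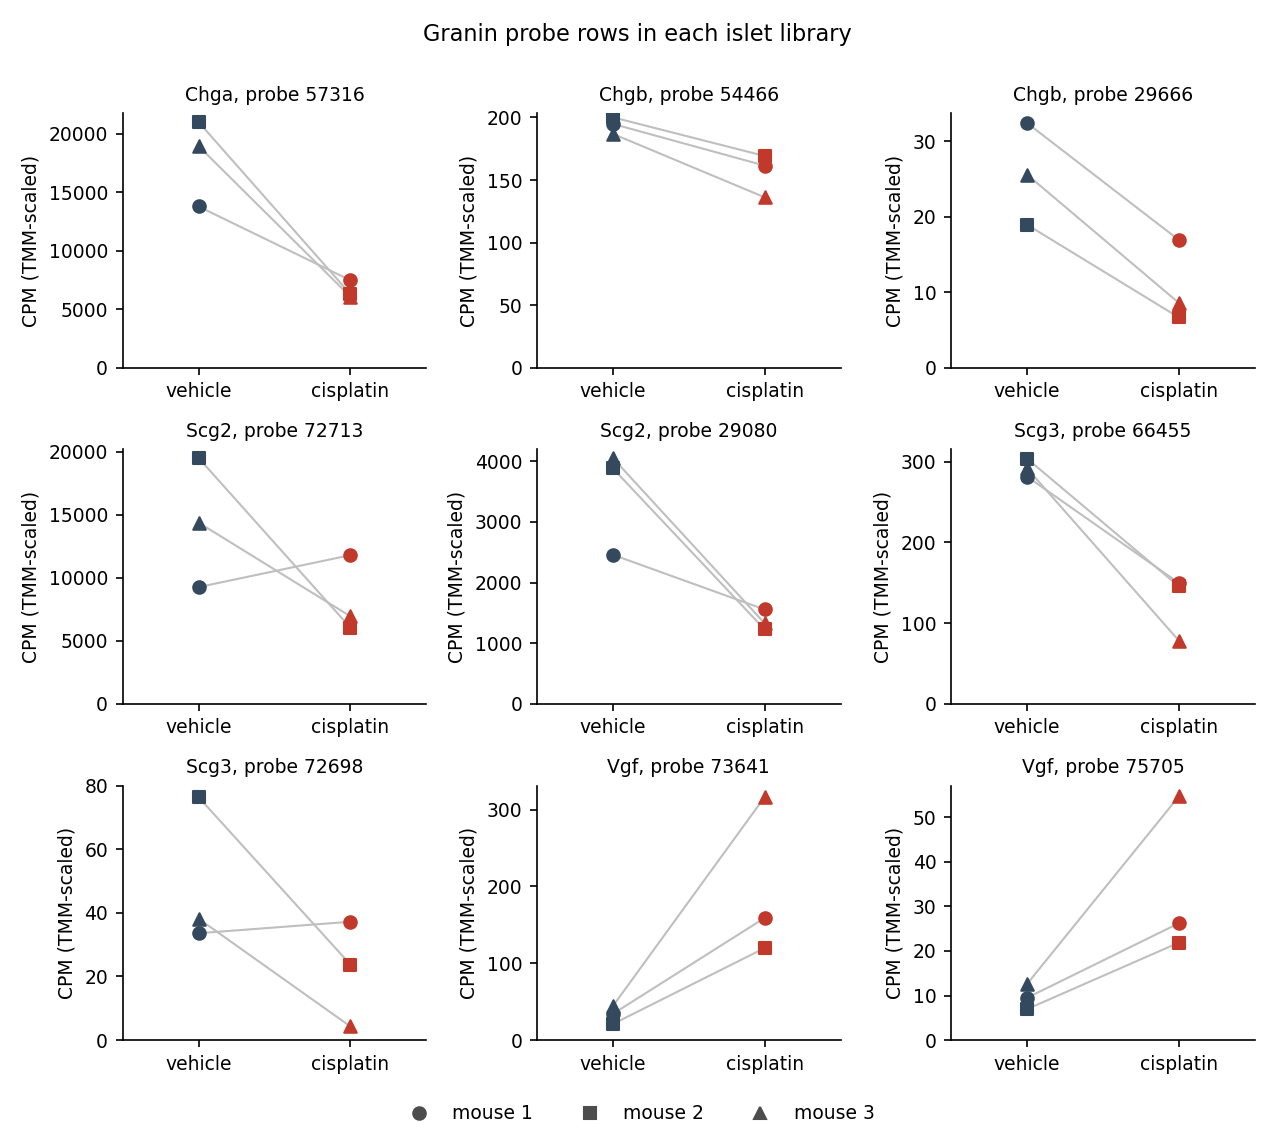
TMM-scaled CPM (vertical axes, each from 0) of the 9 granin probe rows in vehicle (dark) and cisplatin (red) libraries, with a line and a marker shape for each mouse. Both Vgf probes were higher with cisplatin in all 3 mice, Chga was lower in all 3, and Scg2 probe 72713 and Scg3 probe 72698 were higher in mouse 1 and lower in mice 2 and 3.

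**Figure D3:**
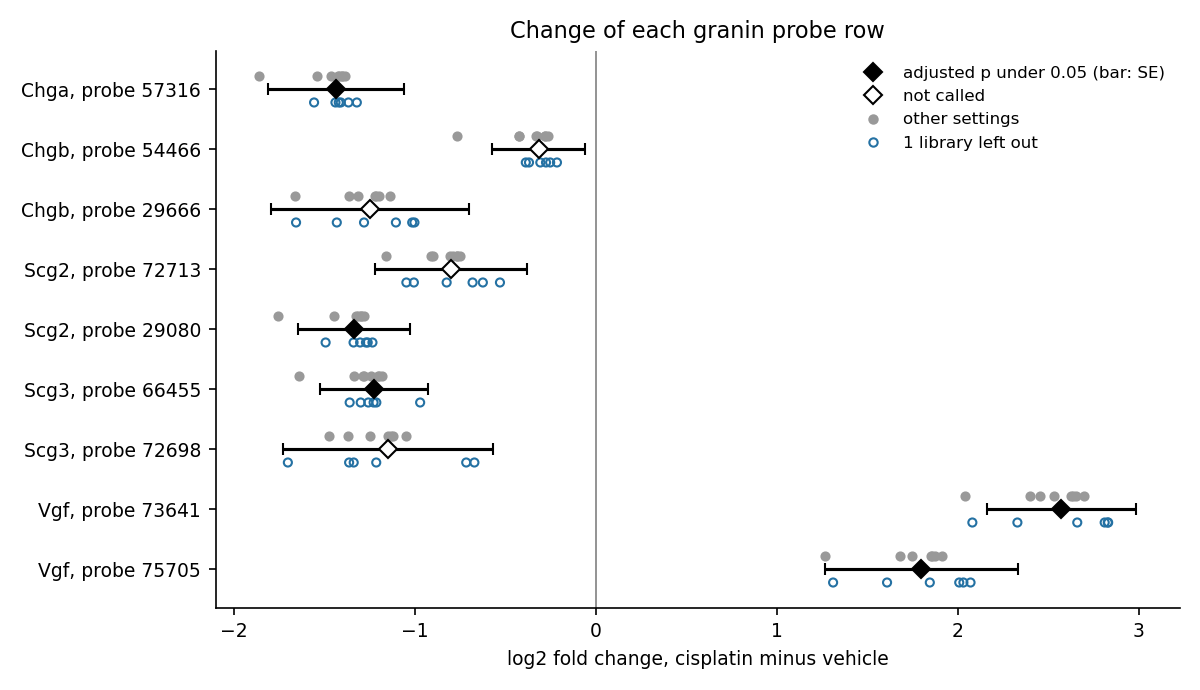
Log2 fold change of each granin row (horizontal axis, cisplatin minus vehicle) with its SE as a bar and a filled diamond where the adjusted p was under 0.05. Grey points are other settings and open blue circles leave out 1 library: every point of the 7 rows of Chga, Chgb, Scg2 and Scg3 lies below 0 and every Vgf point above it.

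A share of all counts in a library needs no scaling factor but depends on what else the library holds. With library totals as the scale, the median log2 fold change over all tested rows was -0.54, so a typical row lost share. The 9 granin rows together took 3.3%, 4.85% and 4.25% of vehicle libraries and 2.26%, 1.1% and 1.02% of cisplatin libraries. The 95% Wilson intervals of these shares lay within 0.0347 percentage points. The means were 4.13% ± 0.779 and 1.46% ± 0.697 (SD, n = 3, exact permutation p = 0.1, the smallest that 3 against 3 libraries allow). With mitochondrially encoded rows left out of the total the shares were 3.36% to 4.86% and 1.13% to 2.33%, so the arms stayed apart. Within the granin counts, Chga made up 46.7% to 52.8% with vehicle and 35.0% to 44.8% with cisplatin, again without overlap. Scg2 made up 44.9% to 52.0% and 51.8% to 62.5%, ranges that overlap. Vgf made up 0.0617% to 0.167% with vehicle and 0.866% to 2.48% with cisplatin. The 95% Wilson intervals of these single-library shares lay within 0.825 percentage points, and within 0.259 for Vgf. These are shares of probe counts. Probes of 1 gene differed several-fold in counts, so the shares do not rank the genes by transcript number.

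Ratios between the genes within a library compare their changes directly, again with no scaling factor. The most abundant rows gave 10 pairs, each tested by a two-sided exact permutation test over libraries that cannot go below 0.1. Of the 10, 7 were at that value (0.143 adjusted over the 10 pairs). This test does not use the pairing within mice. Paired within mice, these 7 were each at an exact permutation p of 0.25, the smallest that 3 pairs allow. All 4 pairs with Vgf were among the 7, and they share the same Vgf row, so they are not independent. A permutation p of 0.1 means only that the arms do not overlap. Among all tested single rows, cisplatin lay wholly below vehicle in 24.3% and wholly above in 19.1%. The share over pairs of other rows was not computed. Vgf rose against Chga by 15.4-fold, from a log2 ratio of Chga to Vgf of 9.12 ± 0.73 to 5.17 ± 0.79 (SD, n = 3). Against Scg3, Scg2 and Chgb the shift was 14.0-fold, 9.98-fold and 7.18-fold in the same direction, with no overlap between the arms.

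Among the other genes, the log2 ratio of Chga to Chgb went from 6.51 ± 0.31 with vehicle to 5.40 ± 0.17 with cisplatin (SD, n = 3), and that of Chga to Scg2 from 0.36 ± 0.24 to -0.26 ± 0.36. The ratio of Chgb to Scg3 was tightly grouped at -0.59 ± 0.06 with vehicle and lay at 0.37 ± 0.37 with cisplatin. None of these 3 ratios overlapped between the arms. The ratio of Chga to Scg3 overlapped between the arms, with a difference of -0.14 (exact permutation p = 0.8), which became 0.038 without cisplatin library 2. The ratios of Chgb to Scg2 and of Scg2 to Scg3 also overlapped (exact permutation p = 0.4 and 0.3).

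**Figure D4:**
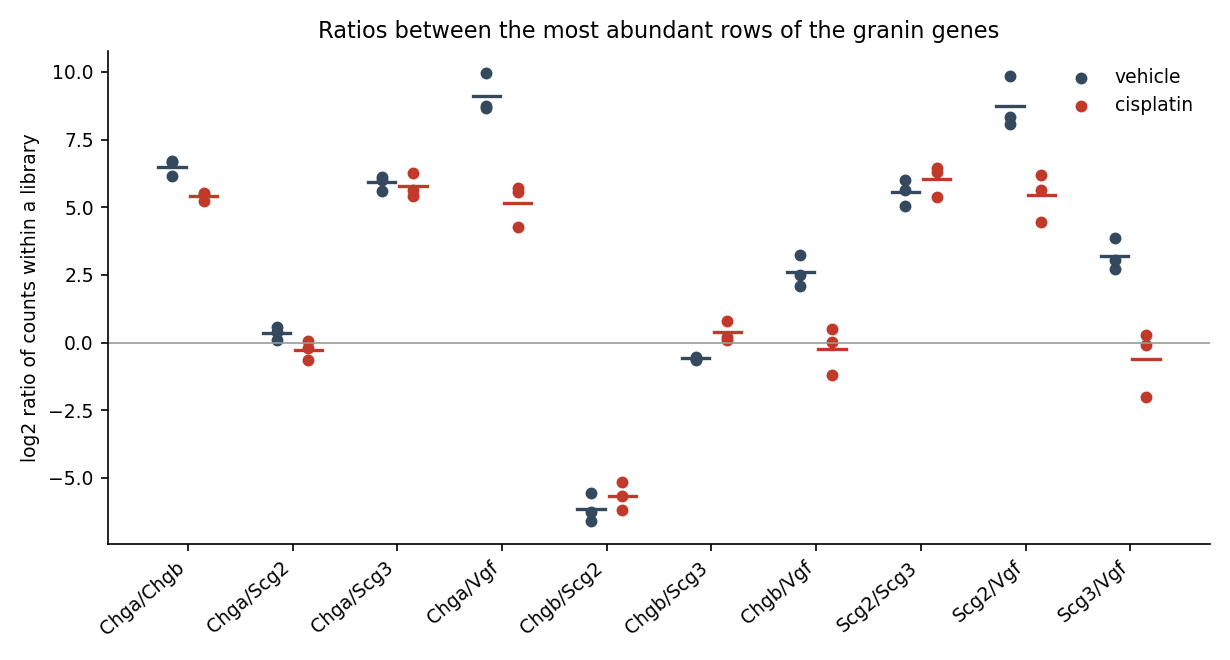
Log2 ratio of counts between the most abundant rows of each pair of granin genes (vertical axis) in every vehicle (dark) and cisplatin (red) library, with horizontal bars at the means. The 4 pairs with Vgf as the second gene show the widest gaps between the arms, while Chga/Scg3, Chgb/Scg2 and Scg2/Scg3 overlap.

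Across the 6 libraries the log2 CPM of Chgb and Scg3 correlated at 0.98 (Pearson), that of Chga and Scg3 at 0.91 and that of Scg2 and Chgb at 0.63, while Vgf ran against the other 4 at -0.70 to -0.97. These values describe 6 libraries from 3 mice in 2 arms, so the difference between the arms enters each correlation. How large a part it has was not tested. The 3 tested rows of other genes closest in pattern to Chga, with a mean CPM of 10 or more, were Ryk, Usp9x and Babam2 (0.994, 0.993 and 0.992). All 3 were called lower. Babam2 passed the cut on mean CPM through its vehicle libraries, with a mean of 24.3 CPM there and 4.59 with cisplatin. Those closest to Chgb were Eprs, Pum3 and Chd9 (0.995, 0.990 and 0.989), and those closest to Scg3 were Tmem39a, Hgfac and Maob (0.998, 0.996 and 0.996). Eprs, Hgfac and Maob were called lower, and Pum3, Chd9 and Tmem39a were not called. Pum3 also passed the cut through vehicle, with a mean of 18.4 CPM there and 8.09 with cisplatin. Scg2 was closest to Wdr1, Hspa5 and Naxd (0.987, 0.984 and 0.983), none of them called, where Hspa5 codes for an endoplasmic reticulum chaperone. Vgf was closest to Otud7b, Nolc1 and Marcks (0.998 each), all called higher (log2 fold changes up to 2.23, that of Marcks).

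Beside the granins stand other genes of the dense-core granule, grouped by role and counted by the most abundant probe of each gene. Of the granin-like chaperones of the convertases, Scg5, which codes for the PCSK2 chaperone 7B2, fell from 575 ± 116 to 202 ± 88.1 CPM (-1.50 ± 0.34, edgeR adjusted p = 0.00587). Pcsk1n, which codes for the PCSK1 inhibitor proSAAS, was not called (0.34 ± 0.30, edgeR adjusted p = 0.439), and its value was -0.0015 without cisplatin library 2 and -0.13 with library totals as the scale. Over all tested rows the shares called were 13.9% lower and 11.1% higher, and the number called in each list is given beside these. Among 6 tested enzymes that cleave or trim granins and hormones 4 were called lower and 0 higher, with a median log2 fold change of -1.21 against -0.07 over all tested rows. By DESeq2 the numbers were also 4 and 0, and at an unadjusted p under 0.05 in edgeR they were 5 and 0. The convertase gene Pcsk2 changed by -3.45 ± 0.32, the convertase gene Furin by -1.57 ± 0.33 (-0.75 with its probes summed, edgeR adjusted p = 0.0491), and Pam, which codes for the enzyme that amidates peptide ends, by -1.26 ± 0.29. The fourth was Cpe, for carboxypeptidase E, named after its value was seen (-0.86 ± 0.27, edgeR adjusted p = 0.0343). Cpe was not called without cisplatin library 1 (edgeR adjusted p = 0.137) or 3 (edgeR adjusted p = 0.0911) or without vehicle library 1 (edgeR adjusted p = 0.142), 2 (edgeR adjusted p = 0.085) or 3 (edgeR adjusted p = 0.0725). The enzymes not called, named after their values were seen, were Pcsk1 and Ctsl. Pcsk1 was at -1.16 ± 0.51 (edgeR adjusted p = 0.117), and was called lower without cisplatin library 1 (edgeR adjusted p = 0.00462). Ctsl went the other way, at 1.37 ± 0.67 (edgeR adjusted p = 0.152), and was called higher without cisplatin library 3 (edgeR adjusted p = 0.0459).

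Of 14 genes of granule formation and sorting 11 passed the filter on low counts and were tested. Of these 1 was called lower and 0 higher, near the 13.9% and 11.1% of all tested rows, with a median of -0.40. At an unadjusted p under 0.05 in edgeR the numbers were 3 and 0, and by DESeq2 2 and 0. Those not tested, named after their values were seen, were Eipr1, Ccdc186 and Vti1a. They had 128, 12 and 19 counts in all with vehicle and 3, 1 and 22 with cisplatin. The one called was Vps41, a part of the HOPS tethering complex, with 247 counts in all with vehicle and 20 with cisplatin (-2.59 ± 0.57, edgeR adjusted p = 0.00532). Ap3d1, an adaptor subunit and the most abundant of the list, was at 0.01 ± 0.29. With the mouse as a block 2 were called lower, with Ica1, named after its value was seen, added (edgeR adjusted p = 0.048, against 0.0577 without the block), and the number was 3 with library totals as the scale or without cisplatin library 1, 4 without the filter on low counts and 2 without cisplatin library 2 or 3 or vehicle library 2.

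Of 10 tested genes of the granule membrane and of release 6 were called lower and 2 higher, against 13.9% and 11.1% of all tested rows, with a median of -1.49. The list also held Slc30a8, named after its values were seen, which had too few counts to test. It had 2 counts in all with vehicle and 1 with cisplatin. The priming factors Cadps2 and Cadps changed by -4.20 ± 0.72 and -4.19 ± 0.58 and the granule membrane protein gene Ptprn2 by -4.18 ± 0.53, from 164, 398 and 441 counts in all with vehicle to 4, 10 and 11 with cisplatin. Sytl4, which codes for the Rab27 effector granuphilin, fell from 1832 ± 343 to 563 ± 37.3 CPM. The 2 called higher, named after their values were seen, were the vesicle SNARE gene Vamp2 (1.34 ± 0.28) and Cyb561, for a cytochrome of the granule membrane (1.13 ± 0.32). Neither was called with library totals as the scale (edgeR adjusted p = 0.0609 and 0.2) or with probes summed per gene (edgeR adjusted p = 0.0506 and 0.0508), and Cyb561 was not called without vehicle library 1 (edgeR adjusted p = 0.115) or 2 (edgeR adjusted p = 0.0572).

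Of 9 tested genes for hormones and other peptides stored with the granins 3 were called lower and 0 higher, against 13.9% and 11.1% of all tested rows, with a median of -1.20 (5 and 0 at an unadjusted p under 0.05 in edgeR, 5 and 0 by DESeq2). These were Ucn3, for a peptide of mature beta cells (-2.73 ± 0.43), the glucagon gene Gcg (-1.70 ± 0.49) and Pyy, for peptide YY (-1.28 ± 0.36). Ins1, the most abundant of them, was at -0.26 ± 0.50, and 0.08 without cisplatin library 3. The number called lower was 1 without cisplatin library 2 or 3 or vehicle library 2, where Gcg and Pyy were not called (-1.01 and -0.74 without vehicle library 2), and 5 with library totals as the scale or without the filter on low counts. With the mouse as a block 4 were called lower, with Ppy, for pancreatic polypeptide and named after its value was seen, added (edgeR adjusted p = 0.0189, against 0.081 without the block). Npy and Cartpt, named after their values were seen, had too few counts to test. They had 8 and 4 counts in all with vehicle and 1 and 13 with cisplatin. Gal was listed but had no row.

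Of 8 transcription regulators tied to granin promoters 6 were tested. By edgeR 0 were called in either direction, against 25.0% of all tested rows, with a median of 0.40. At an unadjusted p under 0.05 in edgeR 1 was higher, and by DESeq2 the same gene, Neurod1, was called higher. Neurod1, a beta cell transcription factor, was at 0.90 ± 0.34 (edgeR adjusted p = 0.0644). Sp1, which binds GC boxes, was at 0.58 ± 0.30 (0.26 without cisplatin library 3, 0.04 with library totals as the scale), and neither value differed from 0 past the threshold. Rest, the repressor that keeps granin genes silent outside neuroendocrine cells, had 3 counts over the vehicle libraries and 2 over the cisplatin libraries, too few to test. Without cisplatin library 1 the number called higher was 1.

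**Figure D5:**
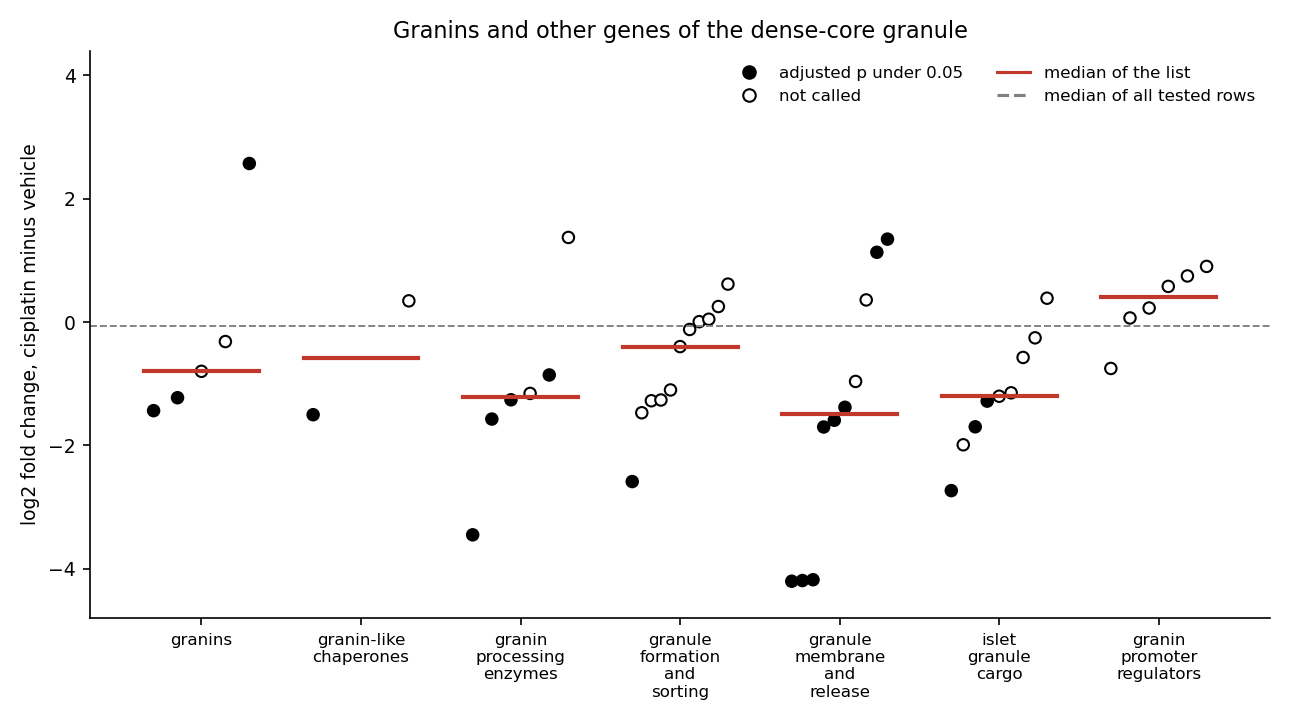
Log2 fold change (vertical axis, cisplatin minus vehicle) of each tested gene of the granins and of 6 other lists, by its most abundant probe, with filled points where the adjusted p was under 0.05. Red bars are list medians and the dashed line is the median of all tested rows, -0.07; Vgf is the single granin above 0.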

How the data were processed

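The deposited table holds whole-number counts that the authors made per probe row and library. Tools listed in the submitters' processing notes are DESeq2 1.44.0, STAR 2.7.10b and fastp 0.23.2. For none of them is a role stated. The build is not given in the sources used here, nor is the way reads were counted. Probe sites and sequences were not used here, and whether probes share reads with related genes cannot be told from the table. Libraries held 1116916 to 2272276 counts.

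Rows were filtered with edgeR's expression filter (minimum count 10) and scaled by TMM. Each of the 9381 rows kept was tested with edgeR 4.0.16 (quasi-likelihood F-test, robust, treatment as the only term, R 4.3.3), with Benjamini-Hochberg adjustment over all rows. The SE of a fold change came from its F statistic. Shares and ratios (log2 of counts plus 0.5) were tested with exact permutation tests in scipy 1.17.1. P-values measure the spread between libraries, animal and assay variation together. The Wilson intervals of shares cover counting error only, and may be too narrow even for that, since amplified reads are not independent molecules. Intervals of fold changes come from the F statistic and include the spread between libraries. Replicates all differed by more than sampling noise. The row test was also run on simulated counts with known changes, as many up as down, and with a spread fitted to these same data. Those counts held no shift in composition, so they could not test the scaling between libraries.

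By the labels, same-numbered libraries share an animal. Deviations from the arm means correlated at -0.116, 0.0336 and 0.219 in the 3 mouse pairs. Between libraries of different mice the same correlations ran from -0.227 to 0.168. Reported values have no mouse term, and adding the mouse as a block was an alternative. Others were RLE factors, library totals, no filter, DESeq2 1.42.0, probes summed per gene, mitochondrial rows left out, thinning to 1116916 counts, and each library left out.

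Every granin row was reported. From each other list the rule took up to 3 called genes with the largest change and the most abundant member, or the 2 most abundant where none was called. It also took, for each granin gene, the 3 rows closest in pattern. Members, lists and motifs were chosen with earlier results of these data known. Gene positions are from GENCODE M21 (GRCm38), matched by symbol, and promoter windows matched 4 of the 5 genes.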

Additional observations from a re-analysis of the deposited data

How the results depend on the processing

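The sign of the log2 fold change was the same for all 9 granin rows under all alternatives run. Of 122 row values 113 kept their side of the threshold, 6 lost a call (5 of them Vgf probe 75705, 1 Chga) and 3 gained one. Granin rows called lower numbered 3 in 6 of the 8 alternatives that kept all libraries, 4 without a filter and 3 to 4 with a library left out. With probes summed each gene is 1 row, and of 5 genes 2 were lower (Chga, Scg3) and 1 higher (Vgf). Rows called higher numbered 1 with library totals and 1 to 2 with a library left out. Over all rows 1085 to 2538 were called with a library left out, against 2344, with 1085 without vehicle library 1 and 1321 without vehicle library 3. With library totals the median of all rows moved from -0.07 to -0.54.

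With the mouse as a block the granin counts were 3 lower and 2 higher, as without it. The block changed 1 list count by over 1.5 times: granule formation and sorting had 2 lower, as it did with DESeq2 or probes summed per gene. It had 3 with library totals, 4 with no filter and 1 to 3 with a library left out. Paired within mice, the granin share differed by -2.67 percentage points (exact p = 0.25, the smallest possible), and by -3.09 to -2.32 with a library left out.

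In the membrane and release list the number higher was 0 with library totals or probes summed, 1 without a filter and 1 to 2 with a library left out. Cargo genes lower numbered 5 with library totals, with no filter or with DESeq2 and 1 to 4 with a library left out. One regulator was higher with DESeq2, and 0 to 1 with a library left out, as for processing enzymes called higher. The difference in the Chga to Scg3 ratio, -0.14, was -0.38 to 0.038 with a library left out and 0.038 without cisplatin library 2. The cause of these shifts was not tested. Low counts in 1 arm leave wide errors: Chgb probe 29666 and Scg3 probe 72698 had 35 and 73 in all with cisplatin, and Vgf probe 75705 had 67 with vehicle.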
